A study of Homo sapiens with 24 samples.

Results

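Genes of homologous recombination, the Fanconi pathway and the replication checkpoint were measured in BT-474 cells. BT-474 is a widely used breast carcinoma line that carries extra copies of ERBB2 and expresses the estrogen receptor. A list of 39 genes was followed, and each was read from a probe set annotated to that gene alone, taking the brightest over all arrays where there were several. Of the 39, 35 had such a probe set and 34 were tested, out of 14335 genes tested in all (19775 had a probe set of their own). BRCA2, RBBP8, FANCA and FANCD2 were not analysed here. FANCB, a subunit of the Fanconi core, was not tested because its level stayed between 3.47 and 4.20, under the log2 level of 5 in at least 3 arrays that a gene needed. The 34 tested members had a level of at least 5.001 on every array.

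The cells had received siRNA against HER2, the receptor tyrosine kinase that ERBB2 encodes, or a control siRNA, and were then grouped by 10 nM estrogen or vehicle and by 4 or 24 h of treatment. The 8 groups of 3 arrays were control siRNA with vehicle at 4 h, control siRNA with estrogen at 4 h, HER2 siRNA with vehicle at 4 h, HER2 siRNA with estrogen at 4 h, and the same 4 combinations at 24 h. Vehicle was 0.001% ethanol, and every group, controls included, had been given an siRNA. All arrays came from 1 cell line, and the labels give neither the siRNA sequences nor the time of transfection.

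Values are log2 RMA levels, in which a difference of -1 is a 2-fold fall, and a difference is given as estimate ± standard error (SE) from limma. The adjusted p is limma's, after Benjamini-Hochberg adjustment over all 14335 genes, and a gene was called past an adjusted p of 0.05. ERBB2 itself stood at 11.86 to 12.69 on the 12 arrays with HER2 siRNA and at 13.39 to 13.94 on the 12 with control siRNA, a difference of -1.34 ± 0.056 (limma adjusted p = 1.11e-14). Array medians ranged from 5.28 to 5.36, and arrays of the same group correlated at 0.991 to 0.997. Luminal markers were high (ESR1 8.60 to 9.62, GATA3 11.44 to 13.02, KRT8 12.52 to 13.15), and of 17 basal or mesenchymal, fibroblast, leukocyte and endothelial markers 8 were below the filter (KRT5, KRT14, ZEB1, COL3A1, LUM, PTPRC, CD14 and CDH5). The other 9 passed it, with VIM (8.72 to 10.23), COL1A1 (8.93 to 10.02) and VWF (6.61 to 7.80) brightest and CDH2, COL1A2, DCN, CD3E, LYZ and PECAM1 at 6.45 or less on every array. The label of HER2 siRNA with estrogen at 4 h, replicate 3, gives 24 h in 1 field and 4 h in the others, and it was kept at 4 h. Without that array the members called by limma numbered 28 as before in the averaged siRNA effect, 21 in place of 22 in the siRNA effect with estrogen at 4 h, 24 in place of 25 in the siRNA effect averaged at 4 h, and 6 as before from 4 to 24 h with HER2 siRNA and estrogen.

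Homologous recombination repairs broken or stalled DNA by copying an intact sister strand: the ends are resected, the BRCA1 and BRCA2 complexes prepare the resected strand to invade the sister, and the joint is then dissolved or cut. The Fanconi core, with the E2 enzyme UBE2T, marks the FANCI and FANCD2 pair with ubiquitin at crosslinks, and this directs recombination to them. The kinases ATR and ATM sense damaged DNA and act through CHEK1 and CHEK2 to hold the cell cycle. Many of these genes are transcribed most in cells that are replicating their DNA, often through E2F factors.

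After HER2 siRNA the recombination, Fanconi and checkpoint genes were mostly lower. Averaged over the 4 conditions, 27 of 34 members fell and 1, ATM, rose, where 29.1% of all genes fell and 30.1% rose. The median difference was -0.68 over the members and -2.3e-06 over all genes. Of the members, 13 fell at least 2-fold (2.32% of all genes did), and for 18 members the 12 HER2 siRNA arrays lay wholly below the 12 control siRNA arrays (8.69% of all genes). The members did not fall alike: estimates ran from -2.08 for RAD51AP1 to 0.35 for ATM. Because RNA came from whole cultures, fewer cells with a transcript and less of that transcript per cell cannot be told apart.

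**Figure D1:**
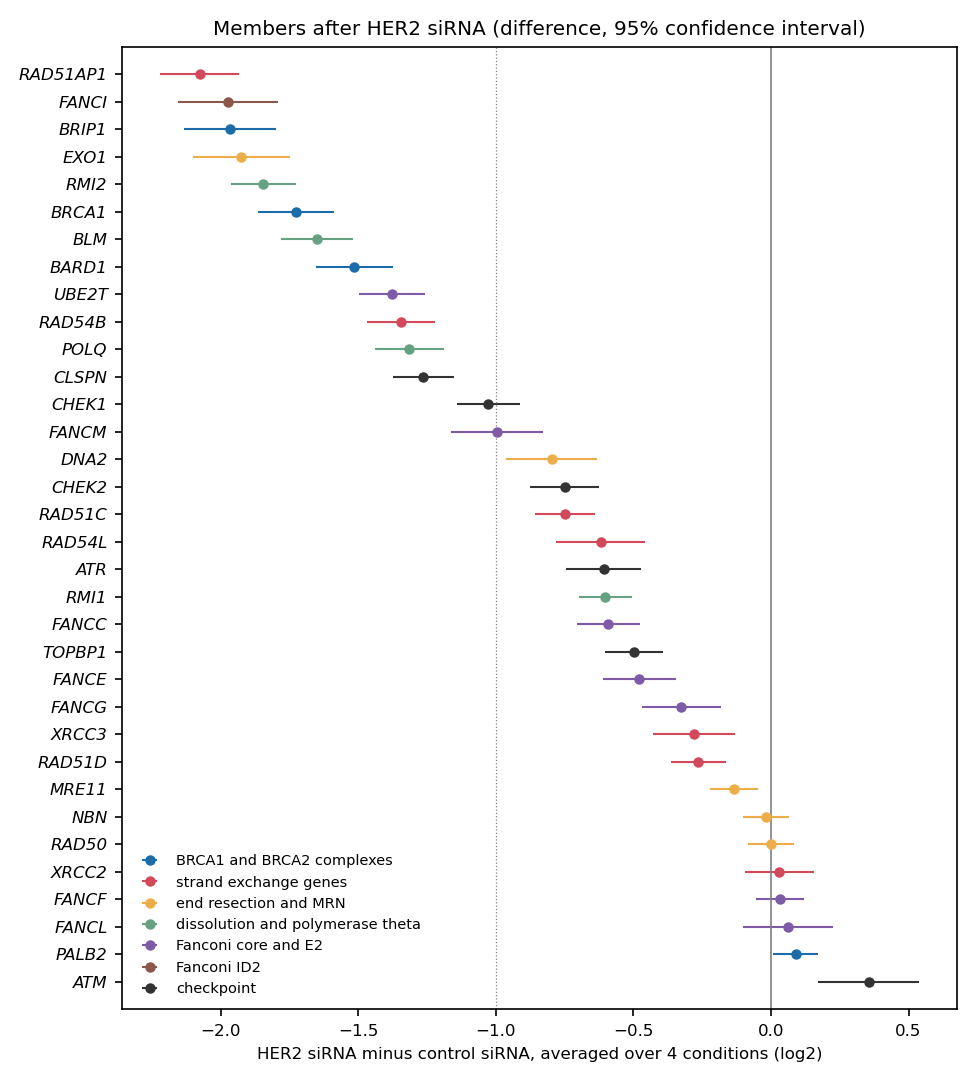
Difference between HER2 siRNA and control siRNA averaged over the 4 conditions (log2, x axis) for the 34 tested members, with 95% confidence intervals and colours for roles. The dotted line marks a difference of -1 (2-fold lower). RAD51AP1 lies lowest at -2.08, and ATM, at 0.35, is the member whose interval lies above 0 with an adjusted p under 0.05.

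Promoter windows show what the extremes of that range look like in sequence. RefSeq windows (build GRCh38.p14, from 250 bases before to 50 after a gene's start, read 5' to 3' on the gene's strand) were at hand for 29 of the 34 tested members. RAD51AP1 (chr12:4538640-4538939, plus strand), BRIP1 (chr17:61863479-61863778, minus strand) and EXO1 (chr1:241847954-241848253, plus strand) fell most in 3 of the roles. UBE2T (chr1:202341887-202342186, minus strand) also fell most in its role, the Fanconi core with its E2 enzyme, and was the member with the largest estrogen response. ATM (chr11:108222817-108223116, plus strand) was the member that rose. EXO1 and ATM have 2 windows each, of which the first listed is printed. Capitals mark a match to an E2F string (TTCCCGC or TTCGCGC or TTGCCGC or TTGGCGC, on either strand).
RAD51AP1: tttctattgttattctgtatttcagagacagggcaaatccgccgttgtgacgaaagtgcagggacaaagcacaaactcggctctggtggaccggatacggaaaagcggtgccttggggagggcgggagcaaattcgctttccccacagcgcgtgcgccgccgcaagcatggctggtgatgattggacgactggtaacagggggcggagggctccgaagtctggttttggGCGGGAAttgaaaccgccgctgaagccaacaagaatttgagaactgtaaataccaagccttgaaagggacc
BRIP1: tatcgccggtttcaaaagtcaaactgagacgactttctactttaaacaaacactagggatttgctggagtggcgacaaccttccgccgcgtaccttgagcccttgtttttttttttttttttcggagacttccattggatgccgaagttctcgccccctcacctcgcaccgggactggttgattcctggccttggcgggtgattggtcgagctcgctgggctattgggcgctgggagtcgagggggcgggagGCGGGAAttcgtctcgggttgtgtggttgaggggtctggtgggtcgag
EXO1: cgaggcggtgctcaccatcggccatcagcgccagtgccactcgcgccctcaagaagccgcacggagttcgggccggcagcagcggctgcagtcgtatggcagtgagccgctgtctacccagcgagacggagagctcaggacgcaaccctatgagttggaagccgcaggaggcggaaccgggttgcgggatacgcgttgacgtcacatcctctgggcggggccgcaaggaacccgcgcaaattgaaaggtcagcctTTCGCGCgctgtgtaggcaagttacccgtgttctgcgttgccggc
UBE2T: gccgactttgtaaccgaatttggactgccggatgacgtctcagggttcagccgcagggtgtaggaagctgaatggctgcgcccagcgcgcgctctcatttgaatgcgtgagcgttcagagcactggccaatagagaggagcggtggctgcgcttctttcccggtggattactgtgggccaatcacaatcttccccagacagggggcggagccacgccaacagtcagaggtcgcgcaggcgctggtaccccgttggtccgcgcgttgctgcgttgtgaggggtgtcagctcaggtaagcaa
ATM: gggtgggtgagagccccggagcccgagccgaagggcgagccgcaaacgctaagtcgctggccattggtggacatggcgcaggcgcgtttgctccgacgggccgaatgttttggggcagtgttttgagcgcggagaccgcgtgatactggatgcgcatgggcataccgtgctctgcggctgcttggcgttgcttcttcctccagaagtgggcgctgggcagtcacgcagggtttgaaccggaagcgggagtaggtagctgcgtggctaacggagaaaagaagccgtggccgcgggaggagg

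The match began 21 bases before the start of RAD51AP1, 2 bases after that of BRIP1 and 5 bases after that of EXO1, and the printed windows of UBE2T and ATM held none. Over the members, 19 of 29 (65.5%) had an E2F match in some window, against 23.1% of the 11448 tested genes with a window and 15.3% of all 27305 genes with one. Of the 10 members with a window that fell at least 2-fold, 8 held a match, and of the other 19 members, 11 did (57.9%). A match therefore occurred in members that fell strongly (BRCA1, BARD1, BLM, POLQ, CLSPN) and in members that were not called (XRCC2, FANCF, FANCL), while CHEK1, CHEK2, ATR and FANCM fell without holding any. The CCAAT box (CCAAT, both strands) was in 55.2% of the members' windows and 42.4% of those of tested genes, and the CHR string (TTTGAA, both strands) in 17.2% and 13.8%. No member held the palindromic estrogen response element GGTCANNNTGACC, which 3 of the 11448 tested genes (0.0262%) did. These are counts of letters in 300 bases and say nothing of binding.

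Among the BRCA1 and BRCA2 complexes, 3 of 4 tested members fell. BRIP1, the helicase that binds BRCA1, ran from 6.17 through a median of 6.94 to 7.57 on HER2 siRNA arrays and from 8.46 through 8.96 to 9.38 on control siRNA arrays. The arms were apart by almost 1 log2 unit, and the difference was -1.97 ± 0.080, or 25.6% of the control level (95% interval 22.8 to 28.7; limma adjusted p = 8.67e-15). BRCA1, the scaffold and ubiquitin ligase, had a lowest, median and highest level of 6.39, 6.65 and 7.37 with HER2 siRNA and of 8.05, 8.39 and 9.05 with control siRNA. Its arms did not overlap either, and the difference was -1.73 ± 0.066 (30.2% of control, limma adjusted p = 3.35e-15). BARD1, the partner BRCA1 needs for its ligase activity, fell by 1.52 on the log2 scale (SE 0.067). PALB2, which bridges BRCA1 to BRCA2, differed by 0.089 ± 0.039 and was not called (limma adjusted p = 0.0581). Its 12 HER2 siRNA arrays (7.75 to 8.23) covered the control range (7.76 to 7.997). PALB2 was called higher in 9 of the alternatives tried, among them the replicate block, so its side of the threshold rests on the setting.

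Of the 7 strand exchange genes, 6 fell. RAD51AP1, which helps strands pair during exchange, ran from 7.32 through 7.68 to 8.22 with HER2 siRNA and from 9.35 through 9.77 to 10.45 with control siRNA. No array of the arms came within 1 log2 unit of the other arm, and the difference of -2.08 ± 0.069 left 23.7% of the control level (95% interval 21.4 to 26.2; limma adjusted p = 5.31e-16). From the lowest up, RAD51AP1 had rank 15 of all 14335 genes. The motor proteins RAD54B (-1.35 ± 0.059) and RAD54L (-0.62 ± 0.078), which remodel duplex DNA during strand exchange, also fell. The accessory genes of strand exchange were graded: RAD51C fell by 0.75 (SE 0.053), XRCC3 by 0.28 (SE 0.072) and RAD51D by 0.26 (SE 0.048) on the log2 scale, while XRCC2, at 0.030 ± 0.060, was not called. Levels in the arms overlapped for RAD51C, RAD51D, XRCC2 and XRCC3.

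In end resection EXO1 and DNA2 fell, while the MRN subunits moved little on their brightest probe sets. EXO1, the exonuclease of long-range resection, ran from 5.92 through 6.29 to 7.16 with HER2 siRNA and from 7.60 through 8.38 to 8.82 with control siRNA. Its arms did not overlap, and the difference was -1.93 ± 0.084 (26.3% of control, limma adjusted p = 2.41e-14). DNA2, the helicase and nuclease that works beside it, fell by 0.80 (SE 0.079). The MRN complex holds and first trims broken ends. Of its subunits MRE11 fell by 0.13 (SE 0.041), while RAD50 (0.00056 ± 0.041) and NBN (-0.018 ± 0.040) were not called. The interval for RAD50 ran from 94.4% to 106% of control. MRE11, NBN and RAD50 depend on the probe set. MRE11 lost its call when the mean of its probe sets was used. In a fit of every probe set, 3 other sets of NBN were called lower (-0.62, -0.17 and -0.54), and another set of RAD50 was called higher (0.54).

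All 4 genes of dissolution and of polymerase theta fell. RMI2, which stabilises the BLM complex that undoes double Holliday junctions, had a lowest, median and highest level of 8.34, 8.52 and 9.10 with HER2 siRNA and of 10.13, 10.42 and 10.78 with control siRNA. Its arms stood about 1 log2 unit apart, and the difference was -1.85 ± 0.057 (27.8% of control, limma adjusted p = 1.87e-16). POLQ, the polymerase of microhomology-mediated end joining, ran from 6.65 through 6.91 to 7.26 with HER2 siRNA and from 7.79 through 8.22 to 8.89 with control siRNA. Its difference was -1.32 ± 0.060, again with no overlap. The helicase BLM fell by 1.65 (SE 0.063), and RMI1, the other small partner of BLM, by 0.60 (SE 0.046).

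Of the Fanconi core and its E2 enzyme, 5 of 7 tested members fell, and the E2 enzyme fell most. UBE2T ran from 7.53 through 8.33 to 9.15 with HER2 siRNA and from 9.20 through 9.70 to 10.24 with control siRNA. The highest HER2 siRNA array and the lowest control siRNA array nearly met, and the difference was -1.38 ± 0.057 (38.5% of control, limma adjusted p = 1.11e-14). FANCM, the DNA translocase that anchors the core, fell by 0.996 (SE 0.080) on its brightest probe set. Its HER2 siRNA levels (5.001 to 5.61) lay near the filter of 5. Another set of FANCM gave -0.67 and the third, at -0.065, was not called. The core subunits FANCC (-0.59 ± 0.055), FANCE (-0.48 ± 0.064) and FANCG (-0.33 ± 0.069) fell less. FANCL, the ubiquitin ligase of the core, differed by 0.063 ± 0.079 and FANCF by 0.033 ± 0.042, and neither was called. FANCF turned to -0.11 (limma adjusted p = 0.0017) when the mean of its 2 probe sets was used. FANCI, the ubiquitin target measured here, ran from 6.74 through 7.34 to 7.87 with HER2 siRNA and from 8.90 through 9.30 to 9.82 with control siRNA. Its arms lay about 1 log2 unit apart, and its difference of -1.97 ± 0.088 (25.5% of control, limma adjusted p = 2.99e-14) came next to that of RAD51AP1 among the members.

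The checkpoint genes held the member that rose. CLSPN, the adaptor through which ATR activates CHEK1, ran from 5.002 through 5.22 to 5.45 with HER2 siRNA and from 6.16 through 6.45 to 6.80 with control siRNA. The arms were apart, and the difference was -1.26 ± 0.053 (41.6% of control, limma adjusted p = 1.39e-14). The HER2 siRNA levels of CLSPN lay near the filter of 5 and around the array medians of 5.28 to 5.36. The percentage of control is to be read with care for that reason. CHEK1, the main effector kinase of ATR, had a lowest, median and highest level of 7.47, 7.60 and 7.86 with HER2 siRNA and of 8.36, 8.68 and 9.03 with control siRNA, a difference of -1.03 ± 0.055. CHEK1 probe sets disagreed: 2 others fell (-1.48 and -1.55), but the fourth was called higher (1.201). CHEK2, the effector kinase of ATM, ran from 5.81 through 6.21 to 6.54 against 6.55 through 6.89 to 7.42, a difference of -0.75 ± 0.060. Its arms touched without overlapping.

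The 2 apical kinases moved in opposite directions. ATR, which answers single-stranded DNA at stalled forks, ran from 8.10 through 8.41 to 8.92 with HER2 siRNA and from 8.84 through 8.98 to 9.46 with control siRNA. The arms of ATR overlapped slightly and its difference was -0.61 ± 0.066 (65.6% of control, limma adjusted p = 4.73e-08). ATM, which answers double-strand breaks, ran from 7.14 through 7.44 to 7.91 with HER2 siRNA and from 6.58 through 7.12 to 7.43 with control siRNA. ATM was thus higher with much overlap, by 0.35 ± 0.088 (128% of control, 95% interval 113 to 145; limma adjusted p = 0.00141). Of 2 dimmer ATM probe sets that passed the filter, 1 was called higher (0.25) and 1 was not called (0.047). TOPBP1, which switches ATR on, fell by 0.50 (SE 0.051).

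**Figure D2:**
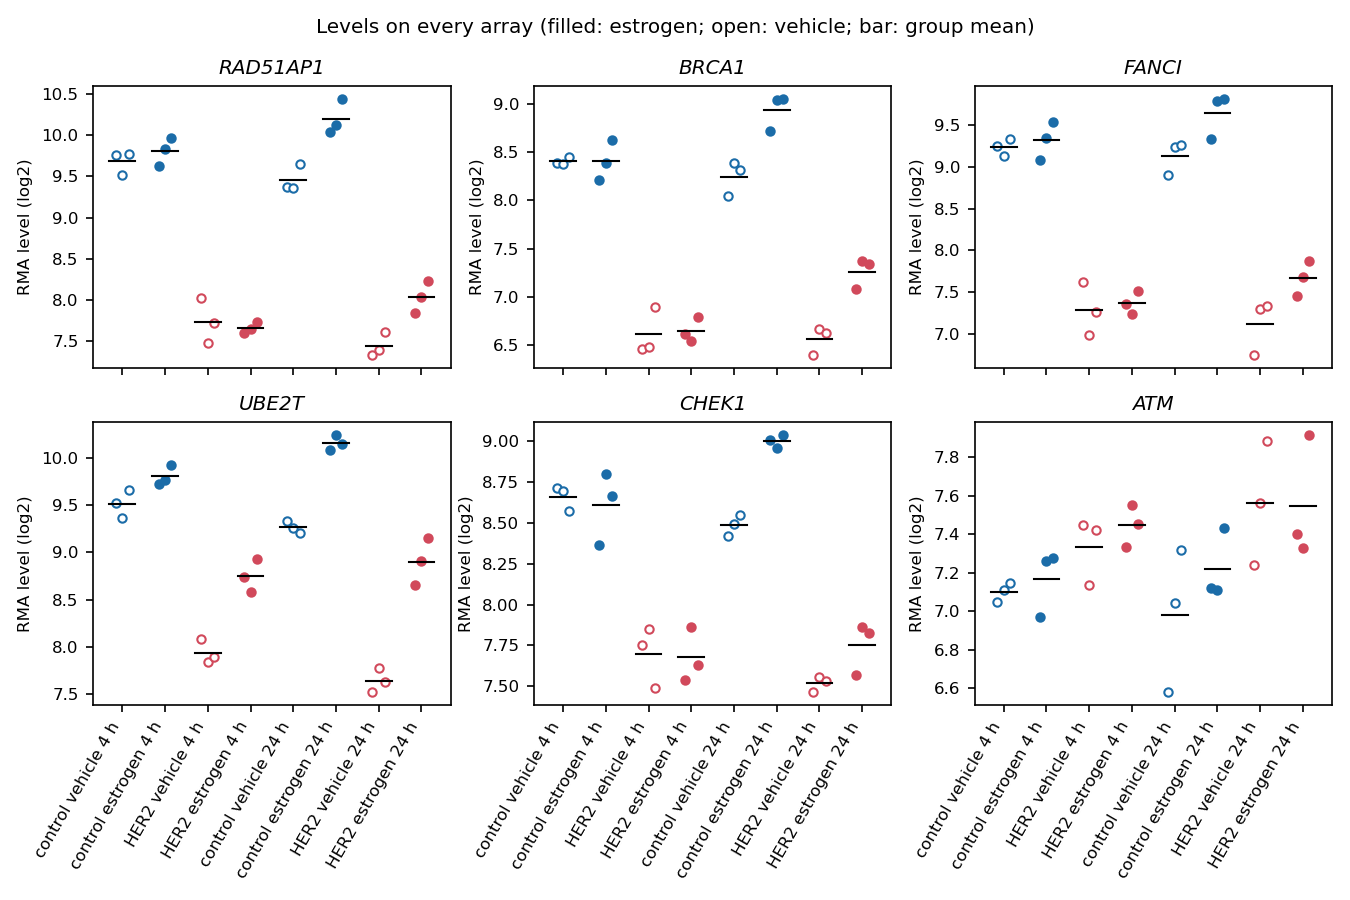
Log2 RMA level (y axis) of 6 members on all 24 arrays in the 8 groups, with blue for control siRNA, red for HER2 siRNA, open points for vehicle, filled points for estrogen and a bar for the mean of 3. RAD51AP1, BRCA1, FANCI, UBE2T and CHEK1 are lower in every HER2 siRNA array than in any control siRNA array, and ATM overlaps.

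The fall was present in each condition. With vehicle 25 members fell at 4 h (17.8% of all genes) and 25 at 24 h (21.8%). With estrogen 22 fell at 4 h (17.3%) and 27 at 24 h (20.5%). The member medians were -0.70, -0.62, -0.66 and -0.77 in that order, against -0.010, 0.0093, 0.0022 and 0.0017 over all genes. In 22 members (64.7%) the fall was called in each of the 4 conditions, against 12.2% of all genes. Among them RAD54L lost its call with estrogen at 4 h in 11 alternatives. FANCC lost its call with vehicle at 4 h and at 24 h, and TOPBP1 with vehicle at 24 h, in some. In 22 members the 3 HER2 siRNA arrays also lay below the 3 control siRNA arrays in every condition (13.5% of all genes). Members that rose in a condition were XRCC2 with vehicle at 4 h (0.31, limma adjusted p = 0.0477; 16.5% of all genes rose) and ATM with vehicle at 24 h (0.58 ± 0.18, limma adjusted p = 0.0111; 19.7% rose). With estrogen no member rose by limma (16.8% of all genes rose at 4 h and 21.5% at 24 h). The call for XRCC2 ended in 10 alternatives and that for ATM in 4. The siRNA effect did not differ between 24 h and 4 h past the threshold for any member by limma (1.73% of all genes were called higher and 1.22% lower), and 2 members had an unadjusted p under 0.05.

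**Figure D3:**
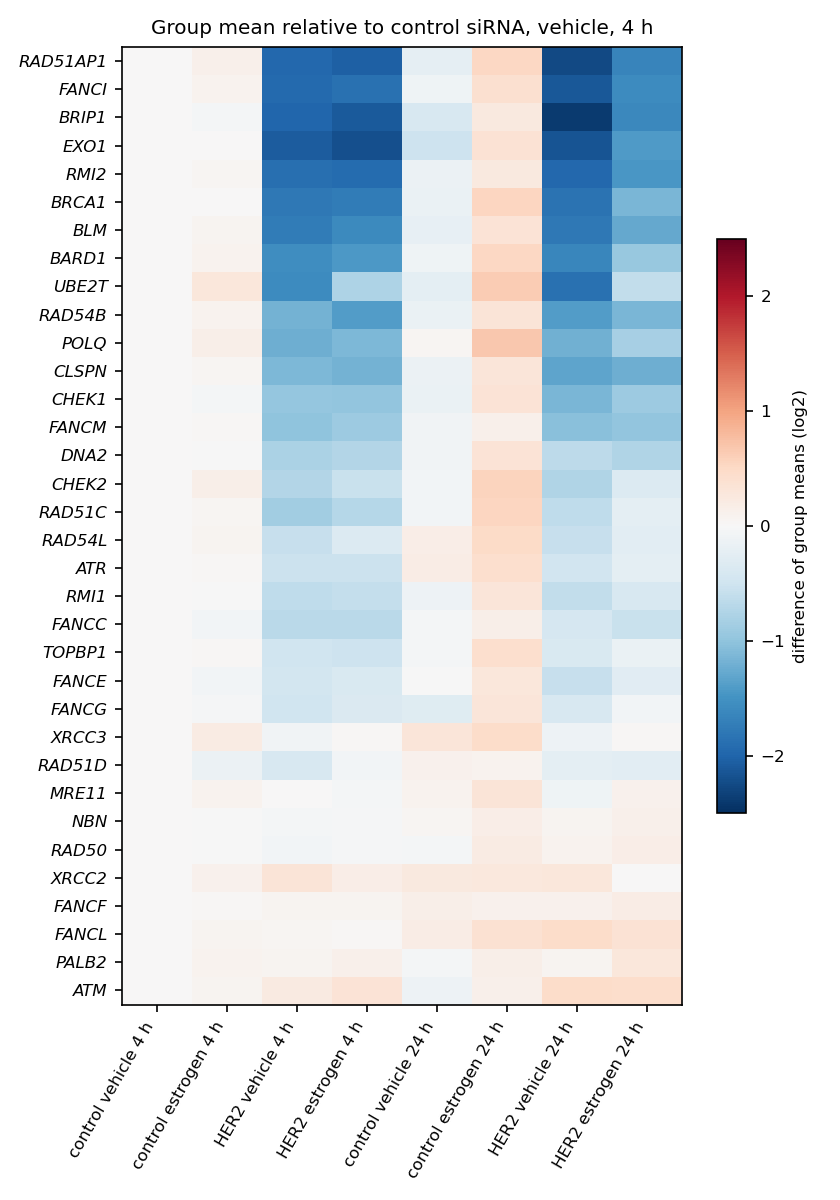
Mean of each group minus the mean of control siRNA with vehicle at 4 h (log2, colour scale from -2.5 to 2.5) for the 34 tested members, ordered by the averaged siRNA difference. The HER2 siRNA columns are blue for the upper members in all 4 conditions, and the control siRNA estrogen 24 h column is red for most members.

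Members called higher with estrogen were many at 24 h and few at 4 h. The difference between the times, given below for control siRNA, was not called for any member. With control siRNA at 24 h, 18 of 34 members rose and 0 fell, where 7.01% of all genes rose and 6.52% fell. The median was 0.42 over the members and -0.0099 over all genes, and in 24 members the 3 estrogen arrays lay above the 3 vehicle arrays (14.5% of all genes). At 4 h with control siRNA 0 members were called by limma, 1 had an unadjusted p under 0.05 and the median was 0.049 (0.335% of all genes rose and 0.00698% fell).

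UBE2T rose most with control siRNA, from 9.33, 9.26 and 9.20 with vehicle at 24 h to 10.09, 10.24 and 10.15 with estrogen. All 3 estrogen arrays stood above the vehicle arrays, by 0.89 ± 0.11 (limma adjusted p = 1.64e-05). EXO1 rose from 7.60, 8.01 and 7.84 to 8.54, 8.82 and 8.71, a difference of 0.87 ± 0.17 (limma adjusted p = 0.00121). RAD51AP1 went from 9.37, 9.35 and 9.65 to 10.04, 10.13 and 10.45, or by 0.75 ± 0.14. In both genes the groups did not overlap. BRCA1 rose from 8.05, 8.38 and 8.31 to 8.72, 9.04 and 9.05 (0.69 ± 0.13, limma adjusted p = 0.00115). POLQ rose from 7.89, 8.16 and 8.24 to 8.61, 8.70 and 8.89 (0.64 ± 0.12), and CHEK2 from 6.55, 6.71 and 6.88 to 7.32, 7.29 and 7.42 (0.63 ± 0.12). These groups were apart as well. CHEK1 rose from 8.42, 8.49 and 8.55 to 9.004, 8.96 and 9.03, by 0.51 ± 0.11 (limma adjusted p = 0.00292). These 3 estrogen arrays had the highest CHEK1 levels of the 24.

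By role, 3 of 4 BRCA1 and BRCA2 complex genes rose (BRIP1 0.63, BARD1 0.63), 3 of 7 strand exchange genes (RAD51C 0.60, RAD54B 0.49), 2 of 5 resection genes (RAD50 0.25) and 4 of 4 dissolution and polymerase theta genes (BLM 0.55, RMI1 0.43, RMI2 0.37). Of the Fanconi core and its E2 enzyme 2 of 7 rose (FANCG 0.59 beside UBE2T), and of the 6 checkpoint genes 4 did (TOPBP1 0.48, CLSPN 0.45). FANCI, from 8.90, 9.23 and 9.26 to 9.33, 9.79 and 9.82, had an estimate of 0.52 ± 0.18 that missed the threshold (limma adjusted p = 0.0558). ATR (0.25 ± 0.13) and ATM (0.24 ± 0.18) were not called. Of the 18 calls, 13 were kept in every alternative that tested the gene, and those of BRIP1, FANCG, RAD50, RAD54B and RMI2 were lost in some. CLSPN, at 6.80 or less on every array, was not tested with a log2 level of at least 7. RAD50 lost its call in 11.

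With HER2 siRNA, UBE2T again had the largest response to estrogen. At 24 h 10 members rose and 0 fell (4.28% and 1.90% of all genes), with a median of 0.24 against -0.0032 over all genes. UBE2T rose from 7.53, 7.77 and 7.63 with vehicle to 8.65, 8.91 and 9.15 with estrogen. This was a difference of 1.26 ± 0.11 (limma adjusted p = 1.33e-07), the only member response to estrogen of at least 2-fold (0.67% of all genes). BRIP1 (0.78 ± 0.16), EXO1 (0.75 ± 0.17), BRCA1 (0.70 ± 0.13), BARD1 (0.69 ± 0.13) and RAD51AP1 (0.59 ± 0.14) followed. The count of 10 fell to 6 without HER2 siRNA vehicle 24 h replicate 1, to 5 without HER2 siRNA estrogen 24 h replicate 2 and to 5 without replicate 3 of that group, and reached 13 when the replicate number entered as a block. The 2 calls that every alternative kept were those of UBE2T and BARD1.

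At 4 h with HER2 siRNA, UBE2T was the member called (0.663% of all genes rose and 0.0349% fell). It went from 8.08, 7.84 and 7.90 with vehicle to 8.74, 8.58 and 8.93 with estrogen, and the groups were well apart. The difference was 0.81 ± 0.11 (limma adjusted p = 0.000374), and 0.72 (limma adjusted p = 0.00661) without replicate 3 of HER2 siRNA with estrogen at 4 h, whose labels disagree. With control siRNA at 4 h the estimate for UBE2T was 0.29 ± 0.11, from 9.52, 9.36 and 9.67 to 9.73, 9.76 and 9.92. The estrogen groups were higher there too, with no overlap, but the gene was not called. The difference between the siRNAs in this estrogen effect was 0.52 ± 0.16 at 4 h (limma adjusted p = 0.999) and 0.37 ± 0.16 at 24 h (limma adjusted p = 0.787), so it was not shown to differ.

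**Figure D4:**
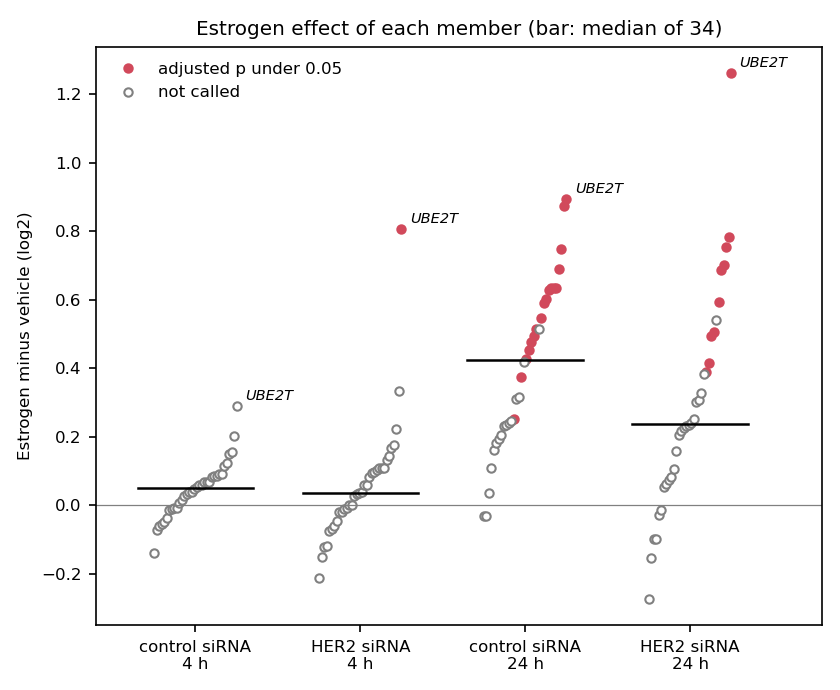
Estrogen minus vehicle (log2, y axis) for each of the 34 tested members in 4 settings of siRNA and time, with red points for an adjusted p under 0.05, open points for members not called and a bar for the median. The medians are 0.049 and 0.037 at 4 h and 0.42 and 0.24 at 24 h, and UBE2T is the highest point in every setting.

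The estrogen effect was not shown to differ between the siRNAs for any member. By limma 0 members were called at 4 h (2 had an unadjusted p under 0.05; 0% of all genes were called in either direction) and 0 at 24 h (4 had an unadjusted p under 0.05; 0.0488% of all genes were called higher and 0.014% lower). The median of the difference at 24 h was -0.14 over the members and 0.017 over all genes, with 25 of 34 estimates below 0. The growth of the estrogen effect from 4 to 24 h with control siRNA was likewise called for 0 members by limma (17 had an unadjusted p under 0.05; 0.677% of all genes were called higher and 0.6% lower), with a median of 0.41. The count was 12 when the replicate number entered as a block, 11 with the block and the number series of the labels, and 4 among genes with a log2 level of at least 7. Leaving out replicate 1 of control siRNA with estrogen at 24 h raised it to 3, and leaving out replicate 3 of the same treatment at 4 h raised it to 2.

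Without estrogen no member was called between the times. Between 4 and 24 h with control siRNA and vehicle 0 members were called by limma (4 had an unadjusted p under 0.05; 0.363% of all genes rose and 0.419% fell). With HER2 siRNA and vehicle 0 were called (6 had an unadjusted p under 0.05; 3.03% of all genes rose and 3.43% fell). In that pair of groups same-numbered arrays deviated together, and with the replicate number as a block 4 were called: FANCL (0.42) and RAD51C (0.23) higher, and BRIP1 (-0.41) and CLSPN (-0.20) lower. It was 1 without HER2 siRNA vehicle 4 h replicate 3.

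With estrogen, 6 members rose from 4 to 24 h under control siRNA and 0 fell (2.53% and 3.43% of all genes): POLQ (0.53), BRCA1 (0.53), RAD51C (0.49), CHEK2 (0.41), TOPBP1 (0.39) and CHEK1 (0.39). All 34 estimates were above 0. This count rose to 14 with the replicate block, to 12 with the block and number series and to 10 with a log2 level of at least 7. It also rested on single arrays, and was 0 without control siRNA estrogen 24 h replicate 3, 2 without replicate 2 of that group, and 1 or 2 without control siRNA estrogen 4 h replicate 1 or replicate 2. Under HER2 siRNA 6 members rose as well and 0 fell (3.06% and 3.15% of all genes), EXO1 (0.78), BRCA1 (0.61), BARD1 (0.50), RMI2 (0.46), RAD51C (0.45) and TOPBP1 (0.37). Leaving out replicate 2 or replicate 3 at 24 h, or replicate 1 at 4 h, of HER2 siRNA with estrogen left a count of 2, and only EXO1 kept its call in every alternative.

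Members that fell further after HER2 siRNA tended to rise further with estrogen. This was read between the siRNA effect at 4 h and the estrogen effect at 24 h with control siRNA, which share no array. Over the 34 members, Pearson's r was -0.777 and Spearman's rho -0.801, and over all 14335 genes r was -0.362. Genes are not independent replicates, and these are descriptions across genes that share RMA processing. Lower after siRNA at 4 h and higher with estrogen at 24 h were 17 members (50%), against 4.28% of all genes. Averaged at 4 h, 25 members fell and 0 rose by limma (26 had an unadjusted p under 0.05; 23% and 23.5% of all genes). EXO1 (-2.14), RAD51AP1 (-2.06) and BRIP1 (-2.01) lay at the strong end on that axis. UBE2T, at -1.32, stood above members of a like siRNA effect in its estrogen response (0.89), and ATR (-0.56, 0.25) and FANCM (-0.96, 0.23) stood low.

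**Figure D5:**
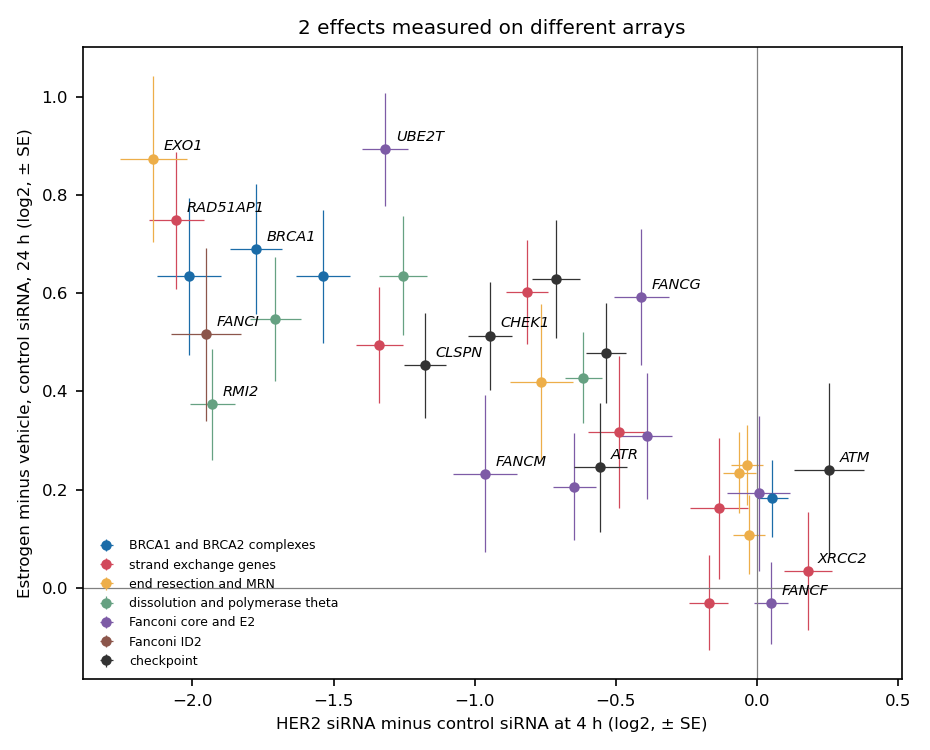
Effect of HER2 siRNA at 4 h (log2, x axis) against the effect of estrogen at 24 h with control siRNA (log2, y axis) for the 34 tested members, with SE bars and colours for roles. The 2 effects come from different arrays, and points run from EXO1 (-2.14, 0.87) at the upper left to XRCC2 (0.18, 0.035) at the lower right.

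After HER2 siRNA and 24 h of estrogen together, most members were still below the level of control siRNA with vehicle. HER2 siRNA with estrogen at 24 h, set against control siRNA with vehicle at 24 h, left 20 members lower and 2 higher (20% and 18.9% of all genes). Furthest below were FANCI (-1.47 ± 0.18), RAD51AP1 (-1.43 ± 0.14), RMI2 (-1.33 ± 0.11), BRIP1 (-1.21 ± 0.16), CLSPN (-1.07 ± 0.11) and BLM (-1.07 ± 0.13). UBE2T was closer (-0.36 ± 0.11, limma adjusted p = 0.0153), a call that ended in 4 alternatives. RAD51C (-0.19 ± 0.11) and CHEK2 (-0.27 ± 0.12), which fell with HER2 siRNA, were not called here, with 95% intervals of -0.41 to 0.032 and -0.52 to -0.016. The 2 that were higher were ATM (0.57 ± 0.18) and PALB2 (0.32 ± 0.079).

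Other repair and checkpoint genes moved less evenly. Of 38 tested further recombination and Fanconi genes 23 fell and 6 rose in the averaged siRNA effect (median -0.18; 29.1% of all genes fell and 30.1% rose). MND1, known for its part in meiotic strand exchange (-2.00 ± 0.081), the helicase subunit MCM8 (-1.15) and PARPBP, which restrains recombination (-1.21), fell, while the helicase HELQ (0.71), the fork-reversal enzyme SMARCAL1 (0.39) and WDR48, cofactor of the deubiquitinase USP1 (0.43), rose. Of 24 checkpoint clamp, mediator and output genes 14 fell and 6 rose (median -0.31). The fork protection gene TIMELESS (-1.49), the histone H2AX (-1.23) and the phosphatase CDC25A (-1.38) fell, while BABAM2 (0.38), the clamp loader RAD17 (0.42) and ABRAXAS1 (0.33) rose. With estrogen at 24 h and control siRNA, 5 of the 38 rose and 1 fell, and 6 of the 24 rose (7.01% of all genes rose and 6.52% fell).

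In the averaged siRNA effect the other repair lists and the p53 targets had medians nearer 0 than the -0.68 of the 34 members. So had the further recombination, Fanconi and checkpoint lists above, while the S phase and the G2 and M markers below had medians further from 0. Over all genes 29.1% fell and 30.1% rose in this comparison, and the counts of these lists are to be read against those shares. In end joining 5 of 9 fell and 2 rose (median -0.26), with the smallest adjusted p among the falls for the kinase PRKDC (-1.58), the Ku subunit XRCC5 (-0.46) and PAXX (-0.38), and with the polymerases POLM and POLL (0.32 each) higher. All 4 tested mismatch repair genes fell (MSH6 -0.57, PMS1 -0.29, MLH3 -0.13, MSH3 -0.097; median -0.21). Base excision repair had 6 of 15 lower and 3 higher (median -0.079), with NEIL3 (-1.55), UNG (-0.60) and PARP2 (-0.41) lower and APEX1 (0.34), MPG (0.31) and OGG1 (0.42) higher. In nucleotide excision repair 5 of 15 fell and 6 rose (median 0.11), near the shares of all genes, with RAD23B (-0.79), ERCC8 (-0.46) and ERCC2 (-0.25) lower and the endonuclease ERCC5 (0.81), the damage sensor XPC (0.78) and GTF2H1 (0.41) higher. Of 13 p53 targets 5 fell (SESN1 -0.48, MDM2 -0.81, ZMAT3 -0.52) and 5 rose (XPC, CCNG1 0.38, SESN2 0.38), with a median of -0.17.

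Cell cycle markers and RNA quality moved with siRNA. All 8 S phase markers fell in the averaged siRNA effect (median -1.61, from MCM2 at -1.23 to RRM2 at -2.14), and so did all 8 G2 and M markers (median -1.65, from PLK1 at -0.93 to BUB1 at -2.10). With estrogen at 24 h and control siRNA all 8 S phase markers rose (median 0.67) and 3 of 8 G2 and M markers did (median 0.36). The mean level of the 8 S phase markers lay between 8.39 and 9.27 on the HER2 siRNA arrays and between 10.05 and 10.83 on the control siRNA arrays, and that of the G2 and M markers between 7.29 and 8.19 and between 9.12 and 9.86. Among markers of other cell types, LYZ (3.52 to 6.32) rose by 1.08, COL1A1 by 0.35 and VIM by 0.29 after HER2 siRNA, and VWF fell by 0.32. The part of any of these in the members' values was not tested. The GAPDH 3' minus 5' difference, which is larger in less complete RNA, was 0.443 ± 0.060 with HER2 siRNA and 0.305 ± 0.066 with control siRNA (SD, n = 12 each; permutation test, 2-sided, p = 0.00014, adjusted 0.00028). For ACTB it was 1.40 ± 0.333 and 1.17 ± 0.294 (permutation p = 0.0775, also after adjustment). With the GAPDH difference as a covariate 26 of 34 members were called in the averaged siRNA effect, and MRE11 and XRCC3 were not (limma adjusted p = 0.46 and 0.302).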

How the data were processed

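RNA of BT-474 cells was labelled with biotin from the 3' end and hybridised to 24 arrays. The authors deposited log2 levels, 1 per probe set and array, made by RMA per the submitters' processing notes; the version and background step are not given in the sources used here. RMA sets arrays to a common distribution, so values are relative within that set. Nothing in the labels states that replicates are separate cultures, so a p-value here reflects array-to-array spread that may be technical. The number of arrays limits the precision.

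Of 54675 probe sets, 41091 had 1 gene symbol in the platform annotation, 1801 had several, 62 were controls and 11721 were unnamed here. Symbols were updated through Entrez identifiers. The brightest probe set stood for a gene, and genes with a log2 level of at least 5 in at least 3 arrays were tested. Limma 3.58.1 in R 4.3.3 was fitted to all 24 arrays with 1 mean per group and empirical Bayes moderation (4.92 prior and 20.9 total degrees of freedom), for 19 comparisons, and was tested on simulated data. Figures and tables were made in Python 3.11.15. The GAPDH and ACTB 3' to 5' differences were compared by 100000 permutations.

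Replicate numbers recur in all groups. Same-numbered arrays deviated together (r over 0.1) in 60 of 84 pairs (median 0.205, against -0.107 for other pairs), and in all 3 pairs for 8 of 28 pairs of groups, so the block is an alternative.

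Levels were given as the lowest, median and highest of 12 arrays per arm, or as the 3 values of a group. This was done for the members with the largest averaged siRNA fall and the largest estrogen rise at 24 h in each role. It was also done for members that moved against most, and for ATM, ATR and CHEK1. Elsewhere up to 6 members past the threshold were named, and up to 3 genes each way of each other list. Members, lists, motifs and rules were chosen with earlier results of these data known. Alternatives were other filters, scalings, probe set rules, moderation, blocks, a GAPDH covariate, only the groups compared, leaving out the 3 arrays whose label numbers stand apart, and leaving out each array in turn.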

Additional observations from a re-analysis of the deposited data

How the results depend on the processing

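Calls lost or gained are counted over the 34 members, or over fewer where a setting tested fewer. With a log2 level of at least 7, 28 members were tested, and with the mean of probe sets 33. A member left untested in a setting can lower the count there but is not listed as having lost its call. The count for the averaged siRNA effect (28) lay between 24 and 30 in other settings and between 28 and 29 with each array left out. Of its 28 calls, 26 were kept in every alternative that tested the gene, and those of MRE11 and XRCC3 were not. Reversed values arose only with averaged probe sets: FANCF gave -0.11 in the averaged effect and -0.12 averaged at 4 h, and NBN gave -0.34 with vehicle at 24 h and -0.30 for HER2 siRNA with estrogen at 24 h against control siRNA with vehicle at 24 h. The estrogen count with control siRNA at 24 h (18) ran from 14 to 20 with an array left out.

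Counts that moved by over 1.5 times belonged to 5 comparisons. For estrogen with HER2 siRNA at 24 h, 10 became 5 with only the groups compared, and 5 to 12 with an array left out. The growth of the estrogen effect between times with control siRNA went from 0 to 4 with a log2 level of at least 7, to 12 with the replicate block, to 11 with the block and number series, to 1 with the mean of probe sets, to 2 with an intensity trend and robust prior, to 1 with the GAPDH covariate and to 1 with only the groups compared, and to between 0 and 3 with an array left out. The rise from 4 to 24 h with control siRNA and estrogen went from 6 to 10 (level of 7), 14 (replicate block), 12 (block and number series) and 3 (only the groups compared), and to between 0 and 8 with an array left out. That with HER2 siRNA and vehicle went from 0 to 4 under both block settings and to between 0 and 1 with an array left out. That with HER2 siRNA and estrogen went from 6 to 3 without the 3 arrays numbered apart, to 3 with the mean of probe sets, to 2 with only the groups compared, and to between 2 and 8 with an array left out. The cause was not tested. The replicate block also took the siRNA count with vehicle at 24 h from 26 to 28 and with estrogen at 4 h from 22 to 24.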
